A study of Danio rerio with 9 samples.

Results

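The genes described here encode subunits and assembly factors of the mitochondrial respiratory chain and ATP synthase in zebrafish embryo cells. They were taken by symbol from the 20847 genes of the deposited table that carries gene symbols: every symbol beginning, in either case, with nduf, sdha to sdhd, uqcr, cox and a digit, or atp5. The rule found 100 genes. Of these, 97 lie in the nuclear genome, and the other 3, COX1, COX2 and COX3, lie in the mitochondrial genome, so they are not nuclear genes and are reported apart. By role there were 32 genes of complex I subunits, 5 of complex II, 8 of complex III, 18 of nuclear complex IV subunits and 17 of ATP synthase. A further 6, 3 and 8 genes encode assembly factors of complexes I, II and IV. The ATP synthase group includes the inhibitor gene atp5if1b, and the ndufa4 genes were placed with complex IV, where their protein belongs in mammals.

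Complexes I and II pass electrons from NADH and succinate to ubiquinone, complex III passes them on to cytochrome c, and complex IV passes them to oxygen. Complexes I, III and IV pump protons across the inner membrane, and ATP synthase uses the return flow of protons to make ATP. Complex II is encoded wholly by nuclear genes, while the other complexes combine nuclear with mitochondrially encoded subunits. Several complex IV subunits have alternative isoforms that in mammals differ between heart or skeletal muscle and other tissues.

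RNA was sequenced from sorted cells in 9 libraries, 3 in each of 3 groups, to compare neural crest of different axial levels and its neighbouring tissue. Neural crest cells migrate widely in the embryo, and those of the cardiac level add cells to the heart. Cardiac crest libraries came from mCherry-positive cells at the 16-somite stage, 17 h post-fertilisation (hpf), taken from the midbrain-hindbrain boundary back to somite 6. Their labels give this stage, while the name of the deposited count table gives 20 somites, so the age difference from trunk crest is uncertain. Non-crest libraries came from the mCherry-negative cells of the same tissue and stage. Both used a line that carries Tg(-4.9sox10:GAL4-UAS-cre) together with UAS:NfsB-mCherry and also myl7:nucGFP, so that a sox10 fragment drives GAL4 and through it the mCherry reporter. Trunk crest libraries came from GFP-positive cells at 24 hpf between somites 7 and 16 in Tg(-4.9sox10:eGFP), where the same sox10 fragment drives GFP. Cardiac and trunk crest therefore differed in age, line, reporter and axial level together, and these cannot be told apart in any difference between them. Their library numbers in the labels also lay in separate ranges, and the labels do not say which libraries were prepared together. A sort on a sox10 reporter takes cells by that reporter alone. Whether replicates are separate collections of embryos is not given in the labels, so every p-value covers only the spread among these libraries, which may be technical.

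Library depth, as reads in the listed genes, lay between 25128422 and 44651306. The crest genes sox10, ets1 and tfap2a together stood at 1044, 993 and 851 reads per 1000000 reads of the listed genes (RPM) in cardiac crest, 118, 116 and 26.0 RPM in non-crest and 1268, 1164 and 1127 RPM in trunk crest. Libraries within a group differed in muscle transcripts: 39 skeletal muscle genes summed to 87.4, 117 and 12928 RPM in cardiac crest, 17868, 17033 and 12521 RPM in non-crest and 32609, 8286 and 11737 RPM in trunk crest. Cardiac crest replicate 3 thus stood apart from the other cardiac crest libraries. Summed pigment gene levels lay between 45.4 and 58.4 RPM in cardiac crest and between 44457 and 49196 RPM in trunk crest. By limma against trunk crest, 5 of 6 neural tube genes and 3 of 8 endothelium and blood genes were higher in cardiac crest and 0 were lower, and of 8 epidermis genes 1 was higher and 1 lower. Among the 3 crest genes, only sox10 passed that test, as lower in cardiac crest. Of all genes, 10.7% were higher and 12.5% lower in that test. In bulk samples, fewer cells of a type and less RNA per cell cannot be told apart.

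Summed over each complex, the nuclear genes were lower in every cardiac crest library than in every trunk crest library for complexes II, III and IV and ATP synthase. Complex I sums of these groups overlapped in RPM. In reads scaled by the authors' size factors they did not overlap. They were then 152820, 115714 and 152640 in cardiac crest and 180677, 227940 and 230681 in trunk crest. Complex II genes summed to 479, 379 and 461 RPM in cardiac crest, against 821, 787 and 847 RPM in trunk crest. The cardiac crest mean was 0.537 times the trunk crest mean, the lowest such ratio of the 5 complexes. For complex III the sums were 1849.6, 1597 and 1669.7 RPM in cardiac crest, against 2485, 2614 and 2760.4 RPM in trunk crest, a ratio of means of 0.651. Complex IV stood at 2502, 2423 and 2441 RPM in cardiac crest and 2870.3, 3626 and 3873 RPM in trunk crest, a ratio of 0.710. ATP synthase and complex I had ratios of 0.791 and 0.826 in RPM. In the scaled reads the ratios were 0.431, 0.520 and 0.565 for complexes II, III and IV, and 0.634 and 0.659 for ATP synthase and complex I. The mitochondrially encoded COX1, COX2 and COX3 together made 23543, 27025 and 20266 RPM in cardiac crest and 19865, 24588 and 24305 RPM in trunk crest, with overlapping groups. Non-crest sums spread widely: replicate 3 held 24479 RPM over the 97 nuclear genes and replicates 1 and 2 held 13244 and 13194 RPM.

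**Figure D1:**
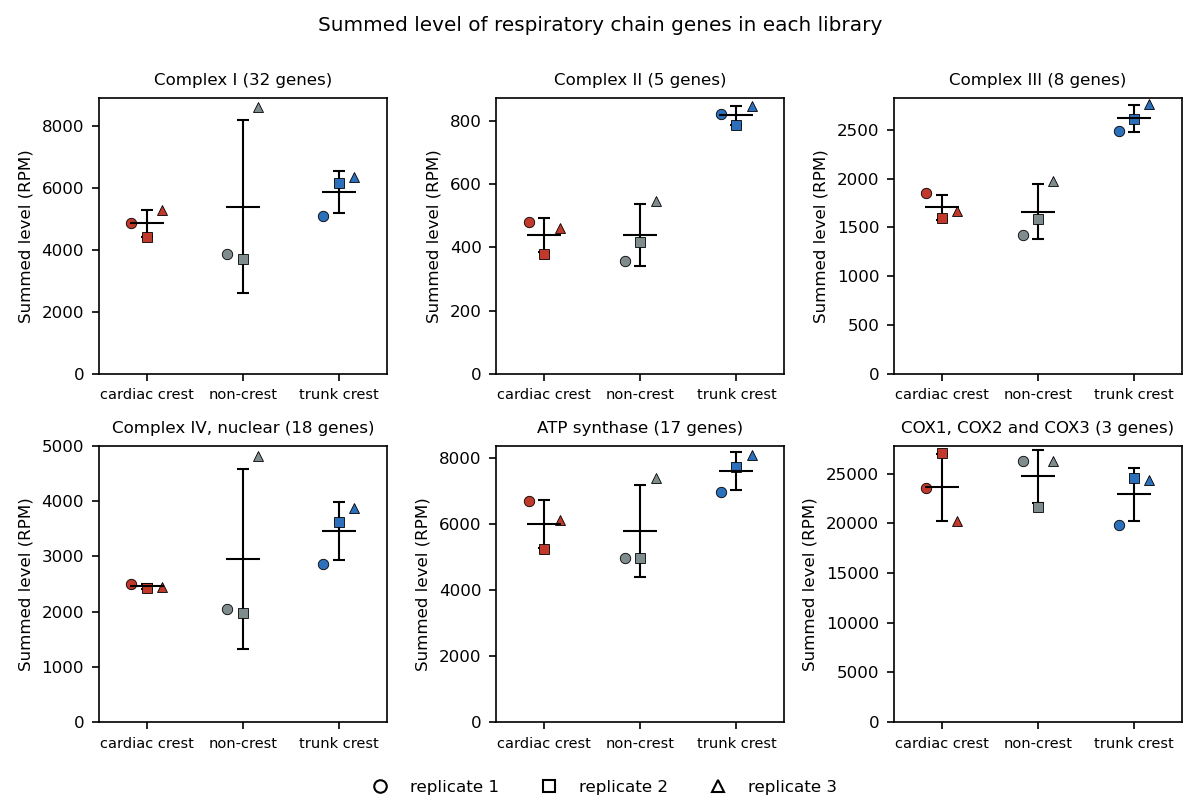
Summed level, in RPM, of the genes of each complex in each library; symbols mark replicates, and the line and bar give the group mean and SD (n = 3). Complex II, III and IV and ATP synthase sums are lower in all 3 cardiac crest libraries than in all 3 trunk crest libraries, and non-crest replicate 3 lies above the other non-crest libraries in the 5 nuclear panels.

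Against trunk crest, 55 of the 100 genes passed the test: 53 were lower in cardiac crest and 2 were higher. The test was limma on log2(value + 1) of the size-factor-scaled reads that the authors deposited, with Benjamini-Hochberg adjustment over all 20847 genes and a call at an adjusted p below 0.05. Over all those genes 23.2% were called, 12.5% lower and 10.7% higher in cardiac crest. In scaled reads, all cardiac crest libraries lay below all trunk crest libraries in 70 of the 100 genes, against 19.9% of all genes. In 2 genes they all lay above, against 21.5%. Some of the 70 genes overlapped in RPM. For ndufs7, the highest cardiac crest library had 287.9 RPM and the lowest trunk crest library 287.2 RPM. The number of genes without overlap in RPM was not computed. At an unadjusted p below 0.05 there were 68 of the 100 genes, against 36.7% of all genes. Of the 85 nuclear genes at 10 RPM or more on average, 53 were lower and 0 higher. In 67 of them the groups did not overlap in scaled reads. The shares of all genes given above include scarce genes, and the share among all genes at 10 RPM or more was not computed. With genes under a mean of 10 scaled reads left out, 26.0% of all genes were called, 14.2% lower. The median log2 fold change of the 100 genes was -0.78, and that of all genes was 0.14. In the authors' deposited table the same 55 genes had an adjusted p below 0.05, with the same direction; that table has 14.9% of all genes lower and 13.9% higher in cardiac crest at this threshold.

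**Figure D2:**
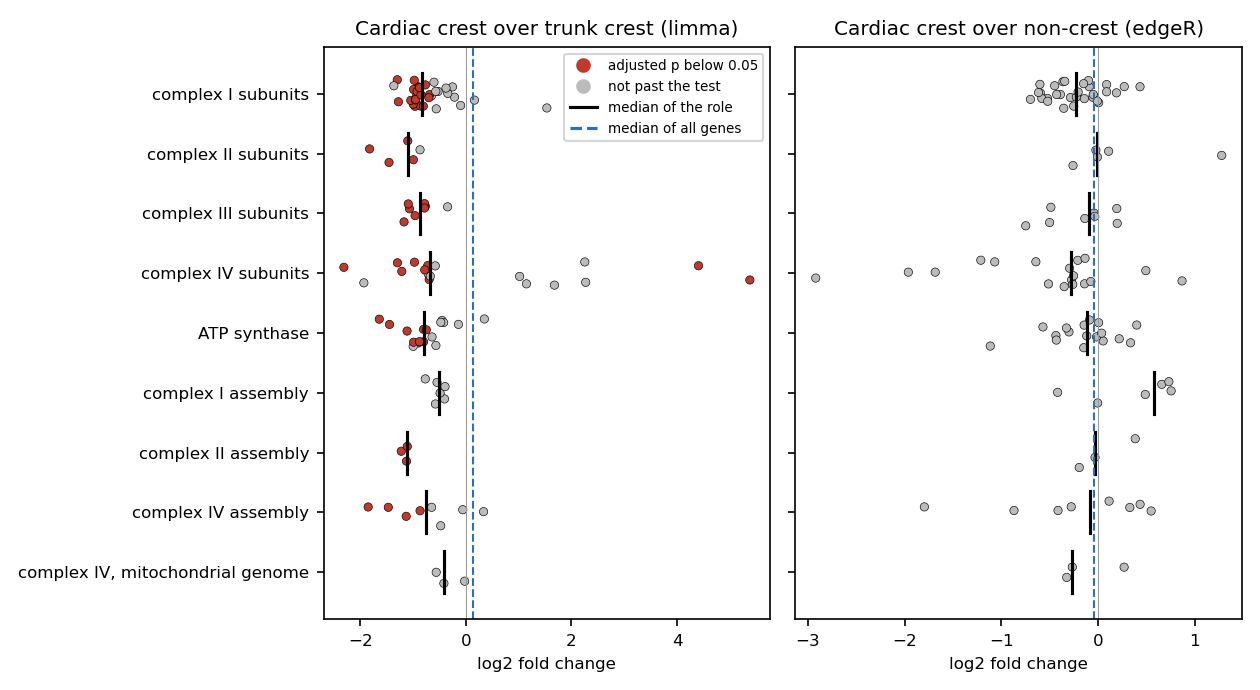
Log2 fold change of each gene by role, cardiac crest over trunk crest on the left (limma, 100 genes) and cardiac crest over non-crest on the right (edgeR, 99 genes). Red points passed the test, black lines are medians of a role and the blue dashed line is the median of all genes. Every role has a median below 0 against trunk crest, and no gene passed the test against non-crest.

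Complex I fell in 19 of its 32 genes and rose in 0, beside 12.5% of all genes lower and 10.7% higher. Its median log2 fold change was -0.83, and that of all genes was 0.14. The core subunits, which carry the flavin, iron-sulphur clusters and quinone site, fell in 5 of 7 genes, and the other subunits in 14 of 25. For ndufs1, the largest iron-sulphur core subunit, scaled reads were 1496, 1102 and 1219.6 in cardiac crest, against 3515, 2485 and 3453 in trunk crest (log2 fold change -1.30 ± 0.24, SE; limma adjusted p = 0.00521). Its groups did not overlap. The flavoprotein core gene ndufv1, which binds NADH, had 2350.2, 1507 and 2405 scaled reads in cardiac crest and 3788, 3669.8 and 3825 in trunk crest (-0.88 ± 0.24; limma adjusted p = 0.0277). The accessory subunit gene ndufa10 had 6358, 5115 and 6359.9 scaled reads in cardiac crest and 12841, 15841 and 14573 in trunk crest (-1.28 ± 0.19; limma adjusted p = 0.00195). These 3 genes were lower in each cardiac crest library. Not every gene of the complex was lower. Accessory subunit gene ndufb9, the most abundant complex I gene per kilobase of gene body, had 18579.8, 13086 and 14810.5 scaled reads in cardiac crest and 10243, 16076 and 15625 in trunk crest, with overlapping groups (0.16 ± 0.24; limma adjusted p = 0.668). The paralogs ndufab1a and ndufab1b, which encode the mitochondrial acyl carrier protein, gave -0.26 and -0.10 and did not pass.

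Complex II fell in 4 of 5 genes, beside 12.5% of all genes lower, with a median log2 fold change of -1.10. The flavoprotein gene sdha (chromosome 19, 7357135 to 7372808, GRCz10), which holds the succinate oxidation site, had 1748, 1534 and 1488 scaled reads in cardiac crest, against 7282, 4796 and 5107 in trunk crest. Its log2 fold change was -1.83 ± 0.23 (limma adjusted p = 0.000771), the most negative of the complex I, II and III genes. The groups stood far apart, and the lowest trunk crest library held over 2 times the reads of the highest cardiac crest library. The membrane anchor gene sdhc had 1952, 1762 and 1665 scaled reads in cardiac crest and 4059, 5533 and 5297 in trunk crest (-1.46 ± 0.21; limma adjusted p = 0.00166). The iron-sulphur subunit gene sdhb, the most abundant of the complex per kilobase, had 6084, 2834 and 3889.8 scaled reads in cardiac crest and 9694, 7097 and 9668 in trunk crest (-1.10 ± 0.29; limma adjusted p = 0.0268). The paralogs for the other anchor subunit, sdhdb and sdhda, had negative values, and only the abundant sdhdb passed (-0.997 and -0.87; limma adjusted p = 0.0209 and 0.245).

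Complex III fell in 7 of 8 genes, beside 12.5% of all genes lower, with a median log2 fold change of -0.88. The core protein gene uqcrc1 had 12888, 9133 and 13139.5 scaled reads in cardiac crest, against 25602, 25183 and 27549 in trunk crest (-1.17 ± 0.20; limma adjusted p = 0.00373). The Rieske iron-sulphur protein gene uqcrfs1, the most abundant of the complex per kilobase, had 25586, 17076 and 19165 scaled reads in cardiac crest and 31827, 36409 and 37028 in trunk crest (-0.79 ± 0.20; limma adjusted p = 0.0231). Neither gene had overlapping groups. The hinge protein gene uqcrh, the paralogous core genes uqcrc2a and uqcrc2b, and the small subunit genes uqcrq and uqcr10 also fell, with log2 fold changes of -1.09, -0.79, -1.07, -0.96 and -0.77. The remaining gene, uqcrb, shares 97.3% of its bases with another gene and held few reads (-0.35 ± 0.53; limma adjusted p = 0.679).

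Complex IV was the most mixed complex, with 7 of 18 nuclear subunit genes lower in cardiac crest, 2 higher and 9 not passing. Beside these, 12.5% of all genes were lower and 10.7% higher. The median of complex IV was -0.69. Most of the abundant isoform genes were lower. The most abundant per kilobase, cox7c, had 11218, 9402 and 9994 scaled reads in cardiac crest, against 13159, 19680.5 and 20726 in trunk crest (-0.78 ± 0.22; limma adjusted p = 0.0336). For cox5aa, which encodes subunit Va, scaled reads were 6666, 4791 and 4585 in cardiac crest, against 10984, 13297 and 14920.2 in trunk crest (-1.30 ± 0.22; limma adjusted p = 0.00380). The subunit VIIa gene cox7a2a had 6175, 4720.0 and 7097 scaled reads in cardiac crest and 10891, 15672 and 15198 in trunk crest (-1.22 ± 0.23; limma adjusted p = 0.00661). In these 3 genes every cardiac crest library was lower. The genes cox6c, cox4i1 and cox6b2, for subunits VIc, IV and VIb, fell with log2 fold changes of -0.98, -0.72 and -0.70. The genes cox6a1, cox7a2l, ndufa4l and ndufa4 missed the threshold, at -0.72 ± 0.23, -0.68 ± 0.23, -0.58 ± 0.21 and -1.93 ± 0.76 (limma adjusted p = 0.0524, 0.0654, 0.0772 and 0.0986).

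The most negative value of all 100 genes belonged to cox6b1 (chromosome 24, 39718206 to 39722738, GRCz10), a minor isoform gene of subunit VIb in these cells. It had 334, 208 and 212 scaled reads in cardiac crest, against 1053, 938 and 1859.8 in trunk crest (-2.31 ± 0.36; limma adjusted p = 0.00230). Every trunk crest library was well above every cardiac crest library. Of the cox6b1 and cox6b2 reads together, cox6b1 took 1.83% ± 0.544 in cardiac crest, 5.42% ± 1.53 in trunk crest and 4.55% ± 2.43 in non-crest (SD, n = 3 each).

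The 2 genes that were higher in cardiac crest were cox7a1 and ndufa4l2a, and both were scarce in every library. The first encodes the isoform of subunit VIIa that predominates in heart and skeletal muscle of mammals. Its libraries held 142, 112 and 126 reads in cardiac crest, against 3, 0 and 1 in trunk crest (log2 fold change 5.38 ± 0.74; limma adjusted p = 0.00134). In scaled reads the ratio was 52.8, with a 95% exact binomial interval of 20.5 to 194.9 that covers counting error only. Cardiac crest libraries with little muscle RNA, replicates 1 and 2, held as much cox7a1 as replicate 3, at 3.18, 3.29 and 3.14 RPM. Non-crest replicates 1, 2 and 3 held 8.14, 3.56 and 0.96 RPM. The cell source of cox7a1 was not tested. For ndufa4l2a, whose mammalian relative NDUFA4L2 is induced by low oxygen, the reads were 71, 47 and 14 in cardiac crest and 1, 0 and 0 in trunk crest (4.41 ± 0.91; limma adjusted p = 0.00917). The ratio of 73.4 had a counting interval of 12.9 to 2921. Non-crest replicates 1, 2 and 3 held 7, 83 and 3 reads of ndufa4l2a. Other scarce isoform genes did not pass: cox4i1l, cox4i2, cox5b2, cox6a2 and cox8b had log2 fold changes between 1.02 and 2.27, which at so few reads depend on the added 1. For cox8b, whose mammalian counterpart is a muscle isoform, 59 of the 63 cardiac crest reads came from replicate 3, the library with muscle transcripts. Trunk crest held 1 read, and the scaled ratio of cardiac to trunk crest had a counting interval of 6.06 to 1405.2. Non-crest replicates 1, 2 and 3, all with muscle transcripts, held 0, 27 and 169 reads. Which cells gave the cox8b reads was not tested.

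**Figure D3:**
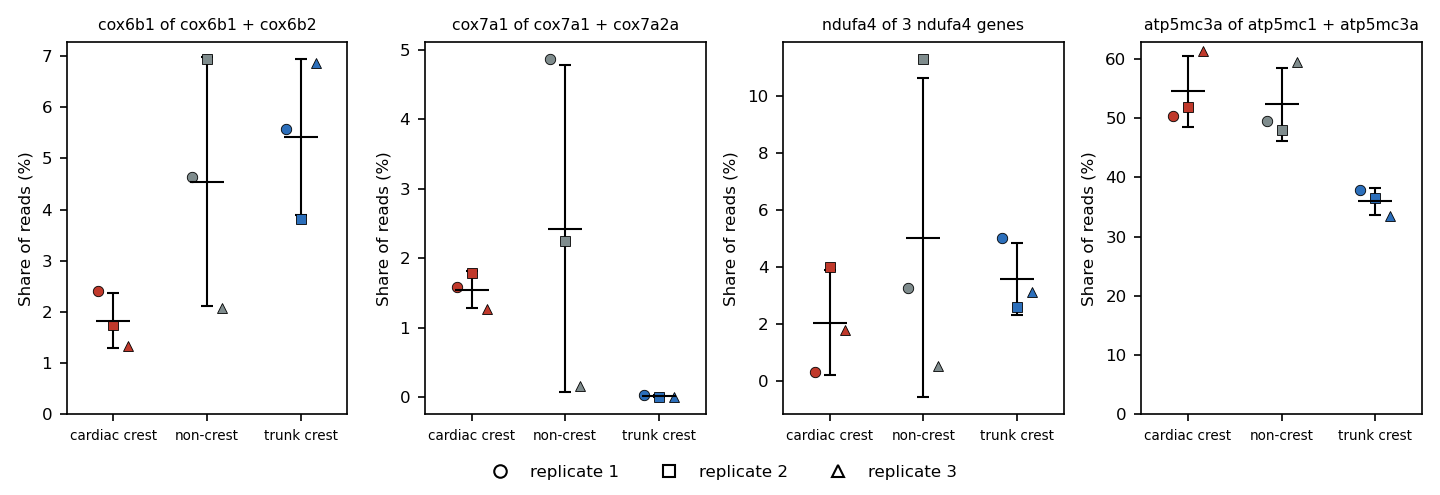
Share of reads, in percent, that 1 gene took of its paralog family in each library; symbols mark replicates, and the line and bar give the group mean and SD (n = 3). The cox6b1 share is lower in all cardiac crest libraries than in trunk crest, the cox7a1 share is higher, and the atp5mc3a share is higher; ndufa4 shares overlap.

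ATP synthase fell in 9 of 17 genes and rose in 0, beside 12.5% of all genes lower and 10.7% higher. Its median log2 fold change was -0.80. In the catalytic head, the beta subunit gene atp5f1b had 36520.2, 18545 and 19818 scaled reads in cardiac crest, against 58883, 44613 and 52079 in trunk crest (-1.12 ± 0.27; limma adjusted p = 0.0188). The alpha subunit gene atp5fa1 had 9862, 5903 and 4698 scaled reads in cardiac crest and 12369.7, 11199 and 12906 in trunk crest (-0.90 ± 0.27; limma adjusted p = 0.0439). Neither pair of groups overlapped in scaled reads. In RPM those of atp5fa1 did, with up to 315 RPM in cardiac crest and down to 303 RPM in trunk crest. The gamma subunit gene atp5f1c, which forms the rotating stalk, gave -0.45 ± 0.25 and did not pass (limma adjusted p = 0.226). Nor did atp5po, for the OSCP stalk subunit and the most abundant per kilobase (-0.48 ± 0.22; limma adjusted p = 0.159).

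Subunit c, which forms the proton-driven ring, is encoded here by atp5mc1 and atp5mc3a. The first had 12898, 9037 and 9228 scaled reads in cardiac crest and 15667, 17513 and 18716 in trunk crest (-0.75 ± 0.20; limma adjusted p = 0.0294). The second had 13094, 9738 and 14677 in cardiac crest and 9551, 10077 and 9413 in trunk crest, with overlapping groups (0.35 ± 0.21; limma adjusted p = 0.254). The share of atp5mc3a among the reads of both was 54.5% ± 5.98 in cardiac crest, 36.0% ± 2.26 in trunk crest and 52.3% ± 6.21 in non-crest (SD, n = 3 each). This gene shares 62.4% of its bases with another gene, and reads of near-identical paralogs may be split, so its level is uncertain.

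The ATP synthase inhibitor gene atp5if1b (chromosome 17, 24594854 to 24596323, GRCz10), whose protein blocks ATP hydrolysis by the enzyme, had the lowest adjusted p of all 100 genes. It had 2382, 1972 and 2305 scaled reads in cardiac crest, against 6109, 7274 and 7423 in trunk crest (-1.64 ± 0.20; limma adjusted p = 0.000629). The 3 cardiac crest libraries lay close together, and all were under the trunk crest libraries.

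Among assembly factors, all genes of complex II, some of complex IV and none of complex I passed the test. All 3 complex II factor genes fell: sdhaf2, which helps attach the flavin in yeast and mammals, at -1.13, and sdhaf3 and sdhaf4 at -1.23 and -1.11 (log2 fold changes). Of 8 complex IV factor genes 4 fell. The copper chaperone gene cox17 had 931, 971 and 1899 scaled reads in cardiac crest and 2513, 3849 and 3799 in trunk crest (-1.47 ± 0.32; limma adjusted p = 0.0124). The gene cox11, needed to insert copper into COX1, had 172, 251 and 407 scaled reads in cardiac crest and 682, 1226 and 998 in trunk crest (-1.85 ± 0.39; limma adjusted p = 0.0104). Groups did not overlap in either copper gene. The other 2 were cox14 and cox20, at -1.13 and -0.87, while the haem A synthesis genes cox10 and cox15 gave -0.48 and -0.06 and did not pass. Among the 6 complex I factor genes 0 passed limma, and 1 of them had an unadjusted p below 0.05. All 6 had negative log2 fold changes, between -0.77 and -0.40, with a median of -0.52. Of all genes, 12.5% were lower in cardiac crest by limma and 36.7% had an unadjusted p below 0.05. Whether the roles differ from each other was not tested.

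The mitochondrially encoded complex IV genes did not pass. COX1, the catalytic subunit with the oxygen site, had 345053, 336875 and 257634 scaled reads in cardiac crest and 289379, 339152 and 321469 in trunk crest, with overlapping groups (-0.03 ± 0.17; limma adjusted p = 0.935). COX2, which receives electrons from cytochrome c, and COX3 gave -0.56 ± 0.19 and -0.42 ± 0.18 (limma adjusted p = 0.0595 and 0.135). Of the 13 protein genes of the mitochondrial genome, 0 passed limma, with a median of -0.35 in scaled reads. In RPM their summed cardiac crest mean was 1.05 times the trunk crest mean, so the direction of the mitochondrial genes differed between the scalings. Reads of all genes of the mitochondrial genome, not only the 13 protein genes, made between 4.42% and 9.40% of the cardiac crest libraries. They made between 4.18% and 4.37% of the trunk crest libraries and between 7.76% and 12.3% of the non-crest libraries. The 13 protein genes summed to 31396, 37027 and 26312 RPM in cardiac crest, against 26147, 32409 and 31887 RPM in trunk crest, with overlapping groups.

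How many genes passed depended on the libraries and on the scaling. In scaled reads, cardiac crest replicate 2 was lowest of 6 libraries for 56 of the 85 nuclear genes at 10 RPM or more. Its size factor, divided by the library total, was the largest of these libraries, which lowers its scaled values relative to RPM. Without this library, 25 genes passed, 23 of them lower, against 15.4% of all genes, 8.93% lower. Without trunk crest replicate 2, 20 passed, 18 of them lower, against 16.8% of all genes, with 1814 of 20847 lower. Without trunk crest replicate 3, 20 passed, 17 of them lower, against 17.8% of all genes, 9.34% lower. In a limma fit with no variance trend 11 passed, 9 of them lower, against 15.4% of all genes, 7.93% lower, so the members' share was near that of all genes. The authors' size factors, divided by the library totals, were larger in all cardiac crest libraries than in all trunk crest libraries, which lowers the scaled cardiac crest values relative to RPM. With reads scaled to library totals instead, 27 genes passed, 24 lower and 3 higher, against 25.9% of all genes, 9.10% lower and 16.8% higher. The median was then -0.44, where that of all genes was 0.46. The medians of the 5 complexes stayed below 0 on that scale, between -0.77 for complex II and -0.35 for complex IV. The genes atp5if1b, cox11, cox5aa, cox6b1, cox7a1, ndufa10, ndufa4l2a, ndufs1, sdha, sdhc and uqcrc1 passed under every setting run.

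Other genes of mitochondrial energy metabolism also changed against trunk crest, where 12.5% of all genes were lower and 10.7% higher in cardiac crest. Of 34 genes for cytochrome c, cytochrome c1 and further assembly factors, 13 fell and 0 rose, with a median of -0.77. The cytochrome c gene cycsb had 16711, 14966 and 20199.9 scaled reads in cardiac crest and 28564, 37379.9 and 37546 in trunk crest (-0.996; limma adjusted p = 0.00813). Of 20 genes for the tricarboxylic acid cycle, pyruvate dehydrogenase and malate dehydrogenases, 10 fell and 0 rose, with a median of -0.73. Citrate synthase gene cs had 1987, 1973 and 1100.1 scaled reads in cardiac crest and 5284, 4730.4 and 4927 in trunk crest (-1.61 ± 0.27; limma adjusted p = 0.00322). The cytosolic malate dehydrogenase gene mdh1aa fell furthest, with 1458, 990.2 and 3057 scaled reads in cardiac crest and 15683, 18316 and 19205 in trunk crest (-3.43 ± 0.37; limma adjusted p = 0.000391). In each of these 3 genes the groups were apart.

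Mitochondrial ribosome genes fell in 17 of 66, with a median of -0.56, and of 8 carrier and pore genes slc25a4 and vdac3 fell. Beside these, 12.5% of all genes were lower. Of 20 regulators of mitochondrial biogenesis, 4 were higher in cardiac crest, 0 were lower and 16 did not pass, with a median of 0.55, beside 10.7% of all genes higher and a median of all genes of 0.14. Those 4 were nrf1 (1.21 ± 0.30), an activator of respiratory chain genes in mammals, yy1b (1.73 ± 0.29), the coactivator gene pprc1 (1.60 ± 0.26) and the orphan receptor gene esrrga (2.44 ± 0.65), with limma adjusted p of 0.0187, 0.00346, 0.00302 and 0.0263. For comparison, 75 cytoplasmic ribosomal protein genes, a list chosen after values were seen, had 1 higher, 0 lower and a median of -0.08, and the ratio of their summed cardiac crest mean to the trunk crest mean was 0.988 in scaled reads and 1.24 in RPM, with overlapping groups, so that its direction differed between the scalings. In these lists 0 genes passed edgeR against non-crest.

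Compared with mCherry-negative cells from the matching tissue, 0 of the 99 genes tested passed edgeR's quasi-likelihood test with Benjamini-Hochberg adjustment over 19648 genes, where 1.5% of all genes passed. At an unadjusted p below 0.05 there were 4, against 10.8% of all genes, and DESeq2 called 1, cox5b2 (adjusted p = 0.0413), where it called 5.51% of all genes with an adjusted p. The median log2 fold change of these genes was -0.15, against -0.04 for all genes, but without non-crest replicate 3 it was 0.30. The gene ndufs8b was too scarce to be tested.

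The 4 genes with the lowest p-values were all lower in cardiac crest on average. The gene cox6b1 had 10.7, 7.96 and 7.36 RPM in cardiac crest, against 16.9, 24.5 and 20.1 RPM in non-crest (log2 fold change -1.21 ± 0.40, SE derived from the edgeR F; edgeR adjusted p = 0.276). For atp5if1b the levels were 76.2, 75.3 and 79.9 RPM in cardiac crest and 111, 118 and 256 RPM in non-crest (-1.11 ± 0.44; edgeR adjusted p = 0.403). Both genes were lower in every cardiac crest library, and both were also among the lowest against trunk crest; the same cardiac crest libraries enter both comparisons. For cox17 the levels were 29.8, 37.1 and 65.8 RPM in cardiac crest and 71.1, 51.1 and 303 RPM in non-crest (-1.80 ± 0.75; edgeR adjusted p = 0.432), and the groups overlapped. The scarce gene cox5b2 had 13, 7 and 7 reads in cardiac crest and 21, 36 and 146 in non-crest.

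Libraries of the groups did not overlap in 7 of the 99 genes tested, in each direction less often than among all genes. In 3 of the 7, cox5b2, cox6b1 and atp5if1b, cardiac crest was below, against 8.26% of all genes. In the other 4 it was above, against 8.76% of all genes. These were the complex I subunit genes ndufa10 and ndufa9a and the complex I assembly factor genes ndufaf1 and ndufaf7. Over 10% of the bases of ndufaf1 lie inside another gene, so its level is uncertain. For ndufaf7, which encodes a methyltransferase needed for complex I assembly in mammals, levels were 30.2, 29.3 and 29.5 RPM in cardiac crest and 16.8, 24.5 and 13.1 RPM in non-crest (0.76 ± 0.33; edgeR adjusted p = 0.468). By role, median log2 fold changes lay between -0.28 for complex IV subunits and 0.58 for complex I assembly factors. Complex I, II, III and IV and ATP synthase medians were all above 0 without non-crest replicate 3, between 0.25 and 0.38. Genes of the catalytic and core subunits gave -0.02 ± 0.27 for sdha, 0.11 ± 0.36 for sdhb, -0.15 ± 0.34 for ndufs1, -0.01 ± 0.33 for ndufv1, 0.20 ± 0.28 for uqcrc1 and 0.20 ± 0.32 for uqcrfs1. The ATP synthase genes atp5fa1, atp5f1b, atp5mc1 and atp5mc3a gave -0.15 ± 0.35, 0.34 ± 0.35, 0.01 ± 0.30 and 0.05 ± 0.38. The membrane anchor genes sdhc, sdhdb and sdhda gave -0.26 ± 0.45, -0.00 ± 0.38 and 1.28 ± 1.27. Complex IV genes ranged between -2.92 for cox5b2 and 0.87 for cox4i1l, and cox7a1, which was higher against trunk crest, gave -0.29 ± 0.74 here.

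Non-crest replicate 3 stood apart from the other non-crest libraries in these genes. Its library number and that of cardiac crest replicate 3 also lay apart from those of the other libraries in these groups. In RPM, non-crest replicate 3 was the highest of the 6 libraries in 57 of the 85 nuclear genes at 10 RPM or more. Over the mean of replicates 1 and 2, its median log2 ratio was 0.98 for those 85 genes and -0.14 for 8604 genes at that level. The excess was uneven within complex I: 24 accessory subunit genes had a median log2 ratio of 1.32, and 18 of them exceeded 2-fold, against 0.25 for 6 core genes, of which 1 did. Accessory gene ndufs5 stood at 448 RPM in this library and 132 and 122 RPM in the other non-crest libraries, while sdha stood at 44.2 RPM against 66.2 and 63.2 RPM. Cytoplasmic ribosomal protein genes were also high in this library, summing to 56181 RPM against 42847 and 33076 RPM, as were mitochondrial ribosome genes, at 10019 RPM against 4936 and 4437 RPM. Endothelium and blood genes summed to 1382 RPM in this library against 611 and 689.6 RPM, neural tube genes to 344 RPM against 1067 and 1022 RPM, and heart muscle genes to 7.45 RPM against 148 and 129.5 RPM. The part of these genes in the result was not tested.

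**Figure D4:**
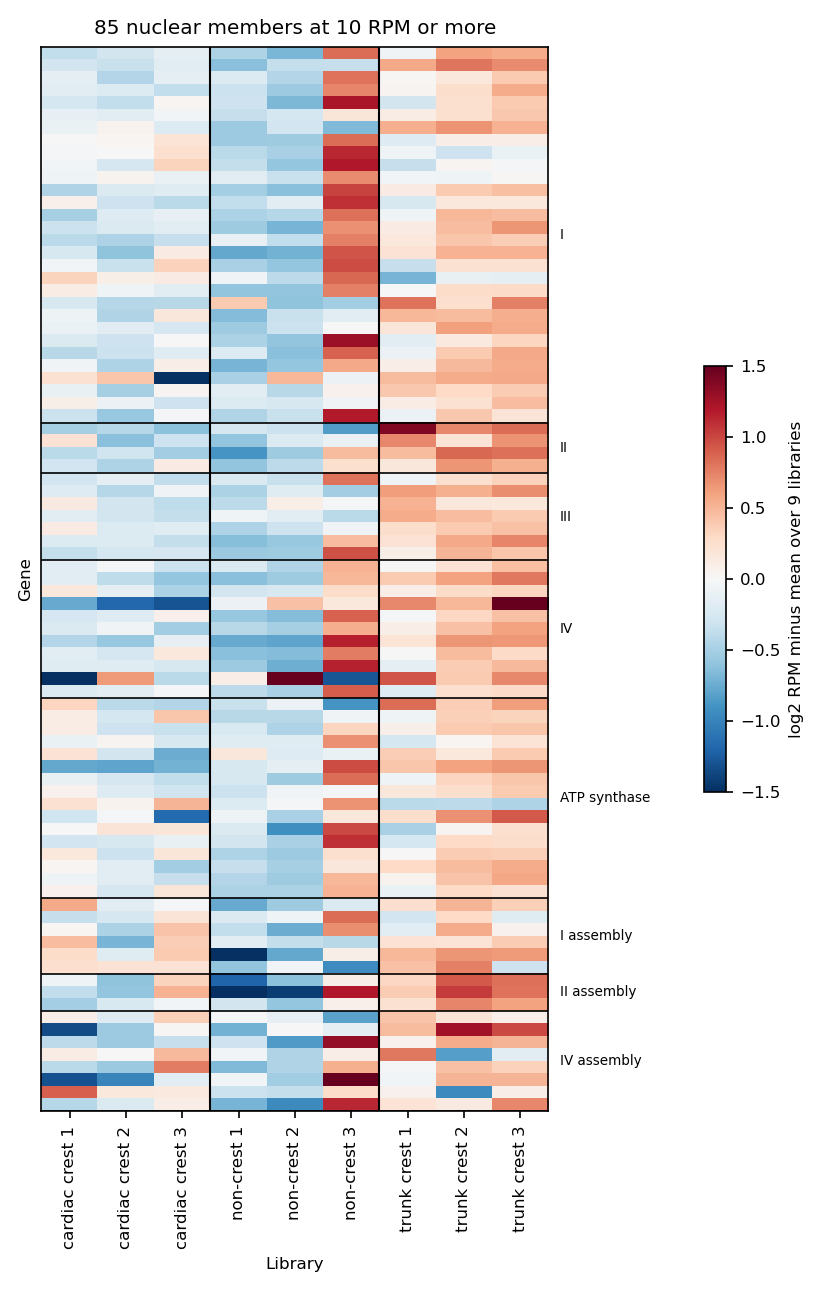
Level of the 85 nuclear genes with a mean of 10 RPM or more in each of the 9 libraries, as log2 RPM minus the mean of the gene over the libraries, with 1 row per gene grouped by role (colours are capped at 1.5 in both directions). Non-crest replicate 3 is red in most complex I and IV rows, and trunk crest libraries are redder than cardiac crest libraries in most rows.

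Within each group, respiratory chain sums did not order the libraries as muscle transcripts did. Between groups, both were lower on average in cardiac crest than in trunk crest. Muscle gene means were 4377 and 17544 RPM, and respiratory chain means were 16219 and 21332 RPM. Non-crest means were 15807 RPM for muscle genes and 16972 RPM for the respiratory chain. Of the 39 muscle genes, 14 were lower in cardiac crest than in trunk crest by limma and 1 was lower than in non-crest by edgeR. Among all genes, 12.5% and 1.21% were lower in these tests. Cardiac crest replicate 3 held 12928 RPM of the 39 muscle genes, 32 of them at 1 RPM or more, and replicates 1 and 2 held 17 and 22 genes at that level. The 97 nuclear genes summed to 17123, 14651 and 16882 RPM in cardiac crest replicates 1, 2 and 3. In cardiac crest replicate 1 the muscle genes myhz1.3, myhz2, pvalb1, pvalb2, smyhc1 and tnni2b.2 had 0 reads. Trunk crest replicate 1 held the most muscle transcripts of all libraries and the lowest respiratory chain sum of its group, at 19138, 21960.4 and 22897 RPM for trunk crest replicates 1, 2 and 3. Without cardiac crest replicate 3, 45 genes passed the test against trunk crest, 43 of them lower, and the median was -0.74. That fit called 22.0% of all genes, 13.1% lower. Leaving out this library, which held most of the cardiac crest muscle transcripts, widened the muscle difference between the groups. The fit therefore cannot show the part of muscle. The heart muscle list of 7 genes summed to 3.05, 8.02 and 8.23 RPM in cardiac crest, 148, 129.5 and 7.45 RPM in non-crest and 12.1, 15.9 and 15.4 RPM in trunk crest. All 11 pigment genes of the list were lower in cardiac crest than in trunk crest by limma. The parts of muscle cells and of pigment cells in the respiratory chain difference were not tested.

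**Figure D5:**
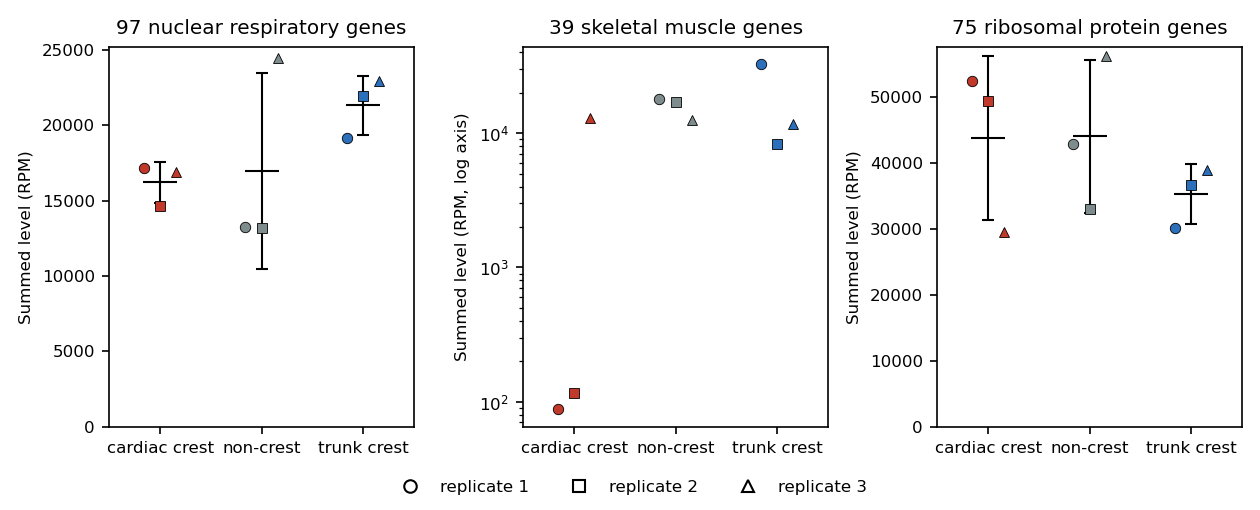
Summed level of the 97 nuclear genes, of 39 skeletal muscle genes (log axis) and of 75 ribosomal protein genes in each library, in RPM; symbols mark replicates, and lines and bars in the outer panels give the group mean and SD (n = 3). Muscle transcripts differ by over 100 times between cardiac crest replicate 3 and replicate 1, whose respiratory chain sums are 16882 and 17123 RPM.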

How the data were processed

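RNA was amplified with SMART-Seq v4 and sequenced as single-end reads, per the labels. The recorded featureCounts command carries the option for paired reads, so the read layout is uncertain. Bowtie2, Subread, featureCounts, DESeq and GRCz10 are named without roles in the submitters' processing notes. The count table holds the raw read counts the authors deposited for cardiac crest and non-crest. Per the deposited headers, featureCounts 1.5.1 counted reads over whole gene bodies of Ensembl release 80, introns included, with no strand option. Where genes overlap, reads are not placed by strand, and near-identical paralogs may share reads. Levels of the 7 genes with over 10% of bases inside another gene are thus uncertain: ndufa12, ndufb4, uqcrb, cox6a2, atp5mc3a, atp5meb and ndufaf1. The other deposited table holds, for cardiac and trunk crest, a signal per gene (reads divided by a size factor), log2 fold changes (trunk over cardiac crest), p-values and adjusted p-values, the −log10 of the adjusted p, and score columns for the error and statistic, as the authors made them. Dividing the signal by its smallest step gave whole reads for 100% of values (within 0.02), equal to the counts in all cardiac crest libraries. Both tables were joined by Ensembl gene ID.

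Cardiac crest and non-crest counts were compared with edgeR 4.0.16 (R 4.3.3; TMM, filterByExpr, robust quasi-likelihood F test; the SE is the fold change over the square root of F). Cardiac and trunk crest were compared with limma 3.58.1 (trend, robust) on log2(signal + 1), which understates the fold change of scarce genes. Calls needed a Benjamini-Hochberg adjusted p below 0.05 over all genes tested. DESeq2 1.42.0, other scalings, filters, pseudocounts and left-out libraries were tried as alternatives, and the tests were checked on simulated data. The labels state no pairing. Same-numbered cardiac crest and non-crest libraries carry neighbouring library numbers in the labels, but their deviations from the group means correlated at 0.03, 0.05 and 0.16, not all above 0.1, so a replicate block was kept as an alternative. Reads carry no molecular identifiers, so intervals cover counting error only. Named genes were the complex II subunits, catalytic and core genes, cox4 to cox8, subunit c and ndufa4 genes, up to 5 called genes in each direction, and the most abundant of each complex per kilobase; other names were added after their values were seen. Members and lists were chosen with earlier results of these data known. The mitochondrial genome was found by chromosome, since the symbol pattern in the list matched 0 genes. No sequence is shown.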

Additional observations from a re-analysis of the deposited data

How the results depend on the processing

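Against trunk crest, calls depended on the libraries and on the model, while 0 of the 39 genes named in this comparison changed a called direction under the settings run. Leaving out 1 library at a time gave between 20 and 50 genes called, 17 to 48 of them lower, with medians between -0.87 and -0.66. These fits called between 15.4% and 22.0% of all genes, with 8.7% to 13.1% lower. A limma fit with no variance trend called 11 genes, 9 lower, against 15.4% of all genes, 7.93% lower. The library totals, an alternative added after the data were seen, gave 27 genes, 24 lower, against 25.9% of all genes, 9.1% lower. The median was then -0.44. Pairing by replicate number was not established. With a replicate block 36 genes were called, 34 lower, against 20.5% of all genes, with 2295 of 20847 lower. For non-crest the block called 0 genes, against 1.45% of all genes. Other pseudocounts, a filter on low values, upper-quartile rescaling, TMM, edgeR and DESeq2 gave between 43 and 57 genes. Of all genes, these settings called between 22.8% and 29.7%. For the 39 named genes, 529 of 618 values kept their call, 82 lost it and 7 gained it. Most often lost were the calls of atp5fa1 (10 of 16 settings), cox4i1 and cox7c (9 each) and atp5mc1 and cox6b2 (8 each).

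Against non-crest, DESeq2 called 1 gene, lower, against 5.51% of all genes with an adjusted p. Every other setting called 0, where between 0.455% and 3.75% of all genes were called. The median lay between -0.38 and 0.30 with 1 library left out, was 0.33 without replicate 3 of both groups, and was -0.02 with the block. Genes under 10 RPM, 12 of the 97 nuclear ones, rest on few reads, and their fold changes are limited by counting error.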

Other observations

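The complex I core genes ndufs8a and ndufs8b differed between libraries of 1 group. Cardiac crest replicate 3 held 77 reads of ndufs8b, against 1 and 5 in replicates 1 and 2, while ndufs8a stood at 22.8, 26.0 and 4.39 RPM in cardiac crest replicates 1, 2 and 3. Of the reads of both paralogs, ndufs8b took 30.4% in that library. The genes were chosen after their values were seen, and the way reads are shared between paralogs was not tested.

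Non-crest replicate 3 was not high in every complex IV gene. COX1 stood at 11473, 10980.5 and 5854 RPM in non-crest replicates 1, 2 and 3, against which COX2 had 7151, 5046 and 9655 RPM and COX3 had 7685, 5560.5 and 10714 RPM. The catalytic subunit gene was thus lowest in the library where the other mitochondrially encoded complex IV genes were highest. The crest gene sox10 stood at 9.04 RPM in that library, against 27.8 and 27.4 RPM in the other non-crest libraries.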
